A study of Drosophila melanogaster with 13 samples.

Results

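In 545 of the 36506 merged open-chromatin peaks with counts (1.49%), a peak was called in every tumor sample and in no sample without the tumor genotype. These peaks were chosen by the lists of peaks called in each sample. A merged peak counted as called in a sample where at least 1 bp of it overlapped a peak of that sample's list, and a member had a call in all 4 tumor lists and in none of 5 wild type and 2 Upd lists. All samples were eye-antennal imaginal discs of Drosophila larvae, the larval epithelia that give rise to the adult eye, antenna and head capsule. The labels place every sample in wandering larvae of the last instar, while the study's methods say that late tumors were taken days after wandering began, from larvae that stay larval and do not pupate. Chromatin was profiled by ATAC-seq, in which a transposase cuts accessible DNA, and by FAIRE-seq, in which nucleosome-depleted DNA is recovered after crosslinking. By the labels, an ATAC-seq sample held 10 discs and a FAIRE-seq sample 200, while the study's methods give fewer tumors for the late ATAC-seq sample.

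The tumor samples came from a cross. The first parent carried eyFlp on a y,w chromosome, act>y+>Gal4 with UAS-GFP, and Tub-Gal80 on FRT82, and the other carried UAS-RasV12 and FRT82,scrib2, also in y,w. In such discs the recombinase, driven in the eye primordium, makes clones that lose both the Gal80 repressor and functional scrib. These clones express oncogenic Ras and GFP, while the rest of the disc keeps the repressor and functional scrib. The study describes much normal tissue in the early tumor and a late tumor that has overgrown the disc. Early and late tumors were each profiled once by ATAC-seq and once by FAIRE-seq, and stage, larval age and the share of mutant tissue cannot be told apart between them. The wild types were w;;FRT82, DGRP-208 and Optix-GFP discs by ATAC-seq and w;;FRT82 and CantonS discs by FAIRE-seq, so they differ in strain. The Upd samples were 2 ATAC-seq replicates of GMR-gal4 x UAS-UPD:GFP discs, in which a JAK/STAT ligand is expressed in the differentiating part of the eye. Nothing in the labels says whether samples of a group came from separate cultures or crosses. The p-values thus rest on the spread between these samples, moderated across peaks, and this spread may be in part technical.

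Open chromatin marks promoters and enhancers where transcription factors have displaced nucleosomes. In clones with oncogenic Ras and without the polarity gene scrib, the JNK pathway is activated, AP-1 factors act on stress and invasion genes, and secreted Upd cytokines activate JAK/STAT signaling. An enhancer that is closed in the normal disc and open in the tumor is called ectopic. Reads from a whole disc cannot tell a larger share of cells with an open region from a region that is more open in each cell. Between 2375435 and 10871706 reads per sample fell in the merged peaks, with the fewest in the FRT82 FAIRE-seq sample and the most in the late tumor by ATAC-seq.

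Other peaks lay just outside the limits of this choice. A further 689 peaks were called in 3 of the 4 tumors and in no control, and the missing call was that of the early FAIRE-seq tumor at 478 of them. Another 214 peaks were called in all 4 tumors and in a single control, most often in CantonS by FAIRE-seq (51 peaks) and least often in the first Upd replicate (11 peaks). In contrast, 9030 peaks were called in all 4 tumors and all 7 controls. The median tumor against wild type difference on the log2 scale was 1.92 in the members, 1.62 in the peaks short of 1 tumor call and 1.38 in the peaks with 1 control call.

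A peak that was not called in the controls was not a region without reads. At 503 of the 545 members, every control had at least 10 reads, and only 2 members had no read in 1 or more controls. The controls together left no member without any read. The lowest count at any member in any tumor was 28 reads. Normalised to counts per 1000000 reads in peaks (CPM, with TMM factors over all 11 samples), the median member had 4.97, 5.96 and 4.91 CPM in the wild types by ATAC-seq (FRT82, DGRP-208 and Optix-GFP, in this order). The Upd replicates had medians of 6.37 and 6.54 CPM, against 29.7 CPM in the early and 32.3 CPM in the late tumor. In FAIRE-seq the medians were 11.2 CPM in FRT82 and 10.1 CPM in CantonS, against 20.3 CPM in the early and 28.7 CPM in the late tumor. In every tumor sample the median member thus lay above the median of all merged peaks, which ranged from 10.8 to 13.2 CPM in these 4 samples, and in every control it lay below that sample's median. Members reached at most 43.5 CPM in the ATAC-seq controls.

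**Figure D1:**
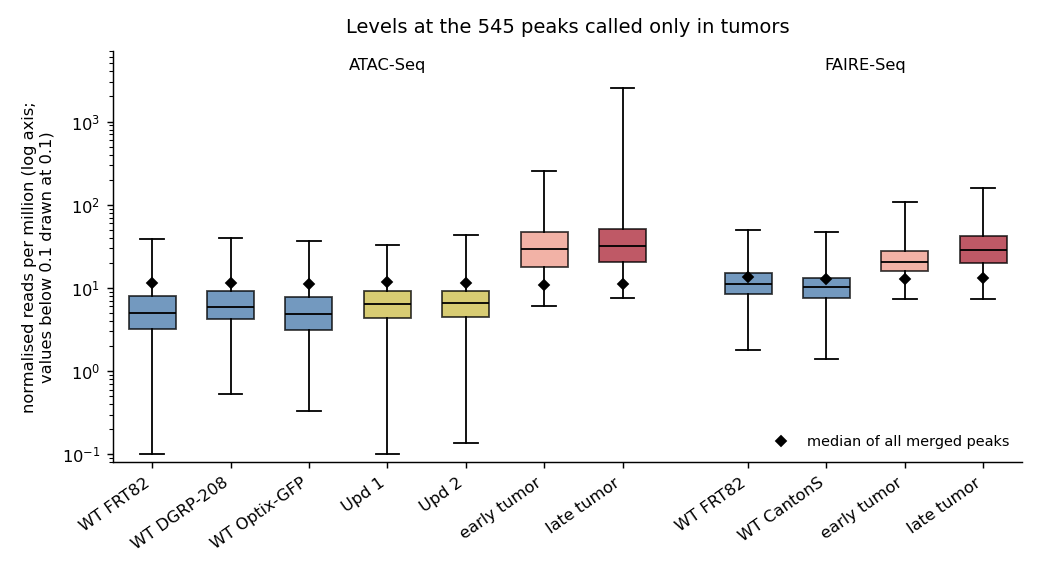
Normalised reads (CPM) at the 545 peaks called only in tumors, on a log axis, for each of the 11 samples; boxes span the quartiles with the median as a line, whiskers reach the lowest and highest peak, and diamonds give the median of all merged peaks. The median member is at 29.7 and 32.3 CPM in the ATAC-seq tumors and at 4.91 to 6.54 CPM in the ATAC-seq controls, and the gap is smaller in FAIRE-seq.

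Members took 1.80% of the reads in peaks in the early and 2.17% in the late ATAC-seq tumor, and 1.52% and 2.08% in the early and late FAIRE-seq tumor. In the controls the share was 0.287% to 0.403% by ATAC-seq and 0.748% and 0.793% by FAIRE-seq. In both techniques at once, all tumors lay above all controls at 524 members. The same was true of 16.1% of all merged peaks, and since the calls that chose the members rest on these reads, this count only describes them. At the other 21 members a control reached the level of a tumor. The smallest difference was that of chr3R:18152759-18152922, with a fitted log2 difference of 0.17 between tumors and wild types. Across the members this difference ran from 0.17 to 9.24 with quartiles of 1.49 and 2.36, and 519 of the 545 had an adjusted p below 0.01 in the edgeR fit, against 11.6% of all merged peaks that opened by this measure. From these counts nothing can be read, because the members were selected on the same contrast.

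In the genome (dm3), the members were spread over all large arms, with 99 on 2L, 92 on 2R, 130 on 3L, 114 on 3R and 110 on X. None lay among the 374 merged peaks of chromosome 4. Of all merged peaks, those of the X were most often members (1.71%) and, chromosome 4 aside, those of 3R least often (1.35%). The members had a median merged width of 341 bp, from 118 to 1370 bp, which lay between the 269 bp of all merged peaks and the 511 bp of peaks called in all 11 samples. A merged peak is as wide as the calls it joins. Calls covered a median of 183 bp of a member in the early FAIRE-seq tumor and 246 to 272 bp in the other 3 tumors. The centres of the calls were a median of 15.5 bp apart between early and late ATAC-seq and 23.5 bp between early and late FAIRE-seq. Across techniques the medians were 28.5 to 31.5 bp. Short distances were built in, since the rule asks for all 4 calls in 1 merged peak, and no other set of peaks was compared.

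Most members had no other member within 10 kb. When members within 10 kb of each other were joined, 409 remained single, 120 formed 60 pairs, 12 formed 4 groups of 3, and a single group had 4 members. That group lay at chr2L:4565022-4580112 and held 4 of the 12 merged peaks in its 15091 bp. Its members ran from 43.4 to 120 CPM in the early and from 23.2 to 86.7 CPM in the late ATAC-seq tumor, against 5.70 to 13.9 CPM in the ATAC-seq wild types. The study's table of opening regions pairs none of them with a gene. The median member was 326 bp from the nearest merged peak of any kind and 3077 bp from the nearest peak called in all 11 samples, and 24.0% lay within 1000 bp of one. For all merged peaks that share was 29.6%. The nearest other member was a median of 48018 bp from a member. From all merged peaks the nearest member was a median of 69598 bp away, and from peaks called in 3 tumors and no control 53558 bp.

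CTCF, the insulator protein that also marks boundaries between chromatin domains, was mapped by ChIP-seq in CantonS discs, a sample that took no part in the choice of members. Only 1 of the 545 members covered at least 40% of a CTCF peak, a share of 0.183% with an exact Clopper-Pearson 95% interval of 0.00465% to 1.02% that covers counting error alone. It was chrX:18410585-18410848, at 18.7 and 15.3 CPM in the early and late ATAC-seq tumor and at 27.6 and 33.1 CPM in the early and late FAIRE-seq tumor. The share was 5.80% of all merged peaks, 15.6% of the peaks called in all 11 samples and 1.16% of the peaks called in 3 tumors and no control. In the peaks called in no tumor and all 7 controls it was 3.20%. With an overlap of 1 bp, 4 members touched a CTCF peak (0.734%, interval 0.200% to 1.87%). The other 3 were chr2R:11372603-11372897, chr3L:21646504-21646779 and chr2L:21108522-21108731, and the last of these had a tumor difference of 0.49 on the log2 scale, near the lower end of the members. Discs of the tumor genotype were not profiled for CTCF. The rule asked for no call in the wild types, CantonS by FAIRE-seq among them. The part of this, and of the peak widths, in the low share was not tested.

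The study's table of opening regions assigns genes to 209 merged peaks, of which 46 are members, paired with 47 genes. The table keeps a region only with a gene whose expression was also higher in such tumors, by public microarray data that the study used. The other 499 members carry no gene name here, and their absence from the table says nothing of the genes near them. The regions of the table were chosen by the study on these samples, so that the genes describe the members and are no independent evidence of their direction. All 47 genes were found in RefSeq by symbol or synonym. Among the 46 members, the fitted log2 difference between tumors and wild types ran from 1.25 (Cpr12A, a cuticle protein gene) to 3.25 (p53), with a median of 2.14.

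Signaling genes came first. The member at puc (chr3R:3942722-3943386), which encodes the phosphatase that both responds to and restrains JNK, was at 17.7, 17.7 and 17.2 CPM in the same order of ATAC-seq wild types and at 22.6 and 20.03 CPM in the Upd replicates. The early and late ATAC-seq tumors had 92.7 and 175 CPM, and FAIRE-seq gave 34.1 and 22.5 CPM in wild types against 56.3 and 122 CPM in the early and late tumor. The groups did not overlap in either technique, as at 524 of the 545 members and 16.1% of all merged peaks. Since the same reads chose the members, this only describes the peak. The puc member had the highest wild type levels of the 46 members by ATAC-seq. The member at upd3 (chrX:18171109-18171510), a secreted JAK/STAT ligand, had 4.97 to 7.36 CPM in the ATAC-seq wild types, 8.04 CPM in each Upd replicate, and 23.0 and 30.7 CPM in the early and late tumor. By FAIRE-seq it had 7.97 and 5.21 CPM in wild types and 16.2 and 31.8 CPM in the tumors. No control reached a tumor there either, which again only describes a member chosen on these reads.

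The member at Mkp3 (chr3L:19065303-19065971), a phosphatase that inactivates ERK at the end of the Ras pathway, was among the brightest. It had 5.51 to 10.99 CPM in the ATAC-seq wild types, 11.2 and 10.1 CPM in the Upd replicates and 87.3 and 101 CPM in the early and late tumor. The FAIRE-seq values were 18.8 and 14.4 CPM in wild types and 43.6 and 75.7 CPM in tumors. Pvf2, a ligand of the PDGF/VEGF-type receptor, was paired with a weaker member (chr2L:7076333-7076739) that stood at 1.96 to 4.50 CPM in the ATAC-seq wild types. It was lower in the late ATAC-seq tumor (18.4 CPM) than in the early one (31.2 CPM), but not by FAIRE-seq, with 19.8 CPM in the early and 21.7 CPM in the late tumor. The member at p53 (chr3R:18876971-18877300), a transcription factor of the DNA damage and apoptosis response, had the largest difference of the gene-paired members. It had 2.13 to 2.52 CPM in the ATAC-seq wild types and 35.3 and 55.1 CPM in the early and late tumor, and stood at 3.85 and 2.59 CPM in the Upd replicates. By FAIRE-seq it had 7.61 and 7.18 CPM in wild types against 19.2 and 42.3 CPM in tumors.

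Immune genes were represented by PGRP-LB, an amidase that degrades bacterial peptidoglycan and dampens the Imd pathway, and by spz3, a relative of the Toll ligand. The PGRP-LB member (chr3R:7280485-7280886) was at 5.07 to 7.42 CPM in the ATAC-seq wild types and at 34.0 and 67.6 CPM in the early and late tumor. At the spz3 member (chr2L:7875567-7875828) the FAIRE-seq tumors, with 26.6 and 46.5 CPM, were higher than the ATAC-seq tumors, with 20.4 and 20.1 CPM. Each FAIRE-seq tumor was above the ATAC-seq tumor of its stage at 7 of the gene-paired members, and below them at 22.

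Another group encodes proteins of cell adhesion, the matrix and the cytoskeleton. The Chd64 member (chr3L:4119066-4119492), at a gene for a calponin-like actin-binding protein, had 4.84 to 5.96 CPM in the ATAC-seq wild types, 5.03 and 5.72 CPM in the Upd replicates and 62.4 and 76.0 CPM in the early and late tumor. The Bsg member (chr2L:8085538-8086150), at the gene for the immunoglobulin-type transmembrane protein basigin, had the highest tumor levels of the 46 by FAIRE-seq, with 91.9 and 150 CPM against 31.5 and 27.2 CPM in wild types. The mfas member (chr3R:7815835-7816235), at the adhesion gene midline fasciclin, was at 64.7 and 69.2 CPM in the ATAC-seq tumors and at no more than 8.86 CPM in any ATAC-seq control. Tsp (thrombospondin), spir (an actin nucleator), pigs (a Gas2-type linker of the cytoskeleton), cindr (an adaptor of the CIN85 family) and insc (an organizer of spindle orientation) each had a member as well. Their log2 differences between tumors and wild types were 2.01, 2.31, 2.16, 2.61 and 2.39.

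**Figure D2:**
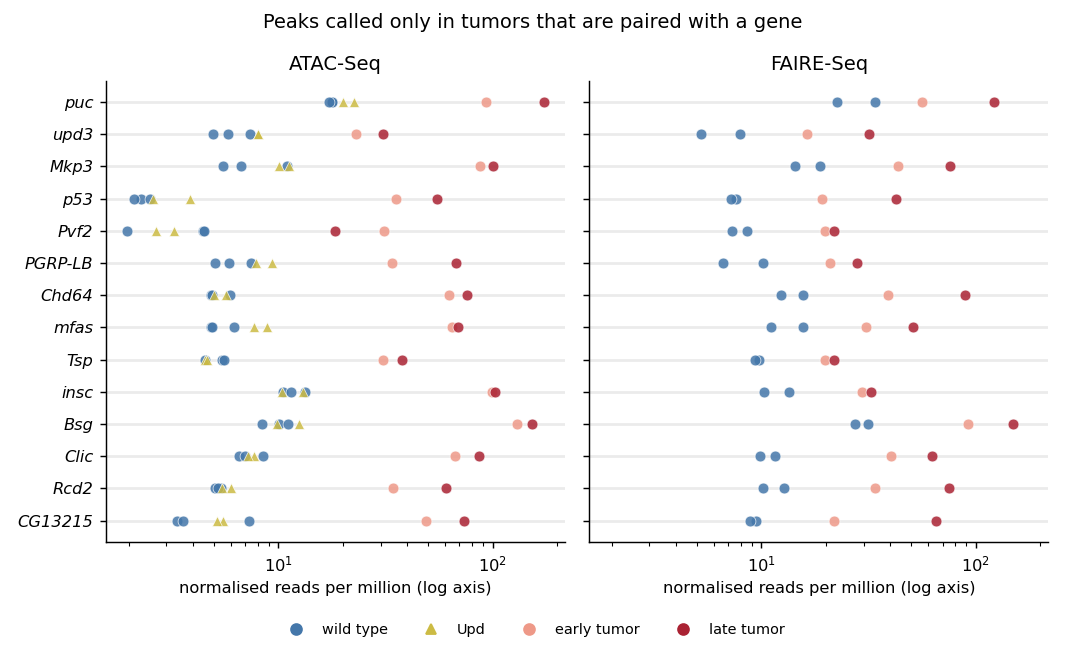
Normalised reads (CPM), on a log axis, at 14 peaks called only in tumors that are paired with a gene, by ATAC-seq (left) and FAIRE-seq (right); each point is 1 sample. In both panels every tumor lies to the right of every control at these genes, as for p53 with 35.3 and 55.1 CPM in the ATAC-seq tumors and at most 3.85 CPM in the ATAC-seq controls. The same holds at 524 of the 545 members and at 16.1% of all merged peaks, and calls from these reads chose the members.

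The remaining gene-paired members included enzymes of detoxification and metabolism. GstE6 and GstE7, neighbouring glutathione transferase genes, shared 1 member with a log2 difference of 2.04, and Aldh (aldehyde dehydrogenase) and Naam (nicotinamidase) had 2.30 and 1.79. Clic (a chloride intracellular channel protein), Esyt2 (an extended synaptotagmin that links the ER to the plasma membrane), Trim9 (a ubiquitin ligase of axon guidance), yellow-b, nahoda, Rcd2, JhI-26 and Cpr12A each had 1 member, and 20 members were paired with genes known only by a CG number. Of these, CG13215 (3.04) and CG9572 (2.95) had the largest differences.

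Lists of pathway genes were read against all paired regions, of which 46 of 209 were members. Of 17 genes of JNK and AP-1 signaling, the study's table pairs 9 with a region, and 2 of them (puc and upd3) had a member. For JAK/STAT it was 1 of 5 paired genes (upd3) and for Ras and EGFR 1 of 3 (Mkp3). In the list of adhesion, matrix and cytoskeleton genes 3 of 11 paired genes had a member (Chd64, mfas and Tsp), and in the list of death genes 1 of 2 (p53). Both paired ecdysone genes, Cyp18a1 and ftz-f1, lay in peaks that were also called in controls, and the Hippo and retinal determination lists held no paired gene. At JNK genes without a member the opening peaks failed the rule in both directions. The Ets21C and Pvf1 peaks were called in 2 and 1 tumors and in no control, while the rpr and Atf3 peaks were called in all 4 tumors and all 7 controls. Of the markers of other cell types, the table pairs atilla (hemocytes), moody (glia), Mlc2 (muscle) and Snap25 (neurons) with a region, and none of these regions was a member. Their log2 differences between tumors and wild types were 1.56, 1.38, 1.08 and 4.55, and the part of other cells in the levels of the members was not tested.

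Early and late tumors were compared across all merged peaks with the technique as a term. The rule did not use the difference between the stages, but it asked for a call in all 4 of these samples and so left out peaks that were too low for a call in one of them, most often in the early FAIRE-seq tumor. In the late tumors 14 members were higher at an adjusted p below 0.01 (edgeR) and none was lower. These are 2.57% of the members, while 0.381% of all merged peaks rose and 0.474% fell by the same test. Only 1 residual degree of freedom stood behind each peak, moderated across peaks. The median difference of the members was 0.29 on the log2 scale (a fold of 1.22), against -0.01 for all merged peaks, and 414 members were above 0. Peaks called in all 11 samples had a median of -0.04, and those that missed a single tumor call had 0.37. Of the 4 paired markers of other cell types, the region of the glial gene moody also rose (0.71, adjusted p = 0.00712, edgeR), while those of Snap25, Mlc2 and atilla had 0.62, 0.01 and -0.35 with adjusted p-values from 0.358 to 0.995. The part of glia in the rises of the members was not tested.

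Of the 14, 3 were paired with a gene. The puc member rose by 0.98 ± 0.19 on the log2 scale (SE, adjusted p = 9.47e-05, edgeR). CG13215 (chr2R:7127502-7128112) went from 49.0 to 73.7 CPM by ATAC-seq and from 21.9 to 65.1 CPM by FAIRE-seq, a rise of 1.02 ± 0.21 (SE, adjusted p = 0.000655, edgeR). Rcd2 (chr3L:20528326-20528846), a gene first found for its part in centrosome assembly, went from 34.4 to 60.6 CPM and from 33.8 to 74.7 CPM (0.95 ± 0.21, adjusted p = 0.00180, edgeR). In all 3 the late sample was the higher in each technique. At p53 the difference was 0.85 ± 0.23 with an adjusted p of 0.0158, and at CG17124 and Chd64 it was 0.86 and 0.70 with adjusted p-values of 0.0470 and 0.0322 (edgeR). For upd3 (0.66), Mkp3 (0.46) and PGRP-LB (0.70) it lay further from the threshold, with adjusted p-values of 0.165, 0.270 and 0.0792. These values rest on 1 pair of samples in each technique, and within ATAC-seq and FAIRE-seq alone they were 0.55 and 1.56 at CG13215, 0.25 and 1.18 at Chd64 and 0.17 and 0.79 at Mkp3. Of the 46 gene-paired members 40 had a late value above the early one, from -0.55 (CG15556) to 1.02.

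The largest rise was at chr3L:23826222-23826434, which also had the largest tumor difference of all members. It had 3, 4 and 6 reads in the ATAC-seq wild types, 2 and 4 in the Upd replicates, 1193 in the early and 23508 in the late ATAC-seq tumor. By FAIRE-seq it had 6 and 10 reads in wild types and 89 and 357 in the early and late tumor. In CPM the late ATAC-seq value was 2499, the highest of any merged peak in that sample. The late rise was 2.62 ± 0.19 on the log2 scale (SE, adjusted p = 6.10e-41, edgeR). Within ATAC-seq and FAIRE-seq alone it was 3.28 and 1.71, which lie further apart than that SE. The SEs of this fit rest on 1 residual degree of freedom, moderated across peaks, and not on replicates within a technique. DESeq2 and a model of all 9 tumor and wild type samples called no member at the same threshold, this one included. Without this peak the members' share of the late ATAC-seq reads was 1.95% in place of 2.17%. The next rises were those of chrX:3721490-3722116 (1.22 ± 0.22), chrX:1749045-1749831 (1.19 ± 0.22), chrX:8007690-8008220 (1.09 ± 0.21) and chr3L:557394-557767 (1.07 ± 0.24). At chrX:3721490-3722116 the ATAC-seq level went from 27.5 to 65.3 CPM and the FAIRE-seq level from 24.6 to 58.7 CPM.

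The X chromosome held 7 of the 14 rising members, 6.36% of the 110 members there. All merged peaks of the X were shifted in the same direction, with a median late minus early difference of 0.07 against -0.05 to -0.01 on arms 2L, 2R, 3L and 3R, and 0.559% of them rose. The part of this shift in the rises on the X was not tested. Off the X, 7 of 435 members rose, with a median of 0.27 against -0.02 for all merged peaks there.

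The members with the largest declines did not pass the threshold. At chr3R:10913103-10913433 the level was 54.4 CPM in the early and 26.7 CPM in the late ATAC-seq tumor and 22.1 and 14.9 CPM by FAIRE-seq, a difference of -0.85 ± 0.24 (SE, adjusted p = 0.0246, edgeR). The next 4 were chr3L:5648139-5648617 (-0.72), chr3R:21459058-21459516 (-0.68), chr2R:19461819-19462293 (-0.63) and chr3R:24415541-24415796 (-0.62), with adjusted p-values from 0.0564 to 0.243. In each of the 5 the late tumor was the lower by both techniques.

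Since early and late tumors were profiled once by each technique, the difference was also taken within each (log2 of CPM plus 0.5). The late tumor was the higher at 357 members by ATAC-seq and at 464 by FAIRE-seq, with medians of 0.15 and 0.44. In both it was higher at 332 members (60.9%) and in both lower at 56 (10.3%). For all merged peaks these shares were 29.6% and 25.4%. They were 62.7% and 8.56% for the peaks that missed a single tumor call, and 52.8% and 10.3% for those with a single control call. The pattern was thus not particular to the members. The ATAC-seq and FAIRE-seq differences share no library. Across the 545 members they had a Pearson correlation of 0.47 and a Spearman correlation of 0.44, and without the peak on 3L with the most reads Pearson's was 0.45. Across all merged peaks Pearson's correlation was 0.16, across those that missed a single tumor call 0.41 and across those with a single control call 0.36. Members are not independent replicates, and all of them share the same 4 libraries.

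**Figure D3:**
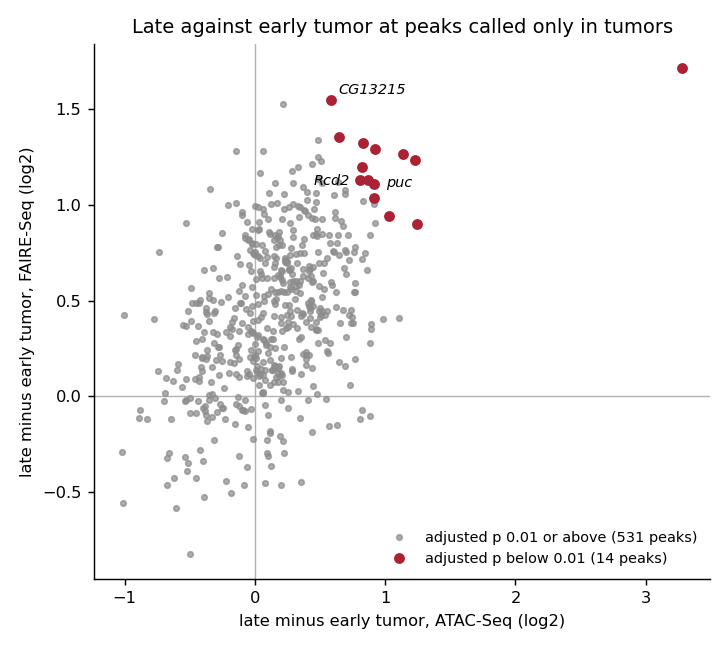
Late minus early tumor on the log2 scale at each of the 545 peaks called only in tumors, by ATAC-seq (horizontal) and by FAIRE-seq (vertical); red points are the 14 peaks with an adjusted p below 0.01 in the fit over both techniques. More points lie above 0 by FAIRE-seq (464) than by ATAC-seq (357), and all 14 red points are above 0 on both axes.

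The late calls depended on the test. DESeq2 called none of the members, against 0.00822% of all merged peaks rising and 0.0329% falling. At an unadjusted p below 0.05 it had 77 members (14.1%, against 4.13% of all merged peaks), where edgeR had 166 (30.5%, against 11.7%). In 1 model of all 9 tumor and wild type samples, edgeR called none of the 36506 merged peaks, members or not. At an unadjusted p below 0.05 it had 27 members (4.95%, against 4.11% of all merged peaks). The median kept its sign in both, at 0.31 and 0.29.

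Overexpression of Upd was compared with wild type in ATAC-seq, with 3 wild type and 2 Upd samples. No member passed an adjusted p of 0.01 in either direction by edgeR or by DESeq2, and the lowest adjusted p of any member was 0.283 (edgeR). At an unadjusted p below 0.05 there were 35 members by edgeR (6.42%, against 7.06% of all merged peaks) and 18 by DESeq2 (3.30%, against 5.42%). Few merged peaks passed at all, 0.00548% rising and 0.011% falling by edgeR and 0.0384% and 0.0849% by DESeq2. The median of the members was 0.21 on the log2 scale, a fold of 1.16, with 416 members above 0, while the median of all merged peaks was -0.01. By sample, the median member differed from the wild type mean by 0.19 and 0.25 in the Upd replicates, and by -0.08, 0.18 and -0.09 in FRT82, DGRP-208 and Optix-GFP. DGRP-208 thus lay within 0.02 of the first Upd replicate. Without DGRP-208 the median was 0.35. In 1 model of all 11 samples with the technique as a term it was -0.079, so that the sign of this median depends on the model. On the X the median of the members was 0.39, where all merged peaks had 0.12.

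The members with the largest Upd values were chr2L:1928067-1928248 (1.76 ± 0.49, SE), chr2L:13124047-13124336 (1.40 ± 0.56), chrX:12166175-12166501 (1.36 ± 0.36), chr3L:1380148-1380545 (1.36 ± 0.41) and chr3R:17467490-17467844 (1.29 ± 0.28), with adjusted p-values from 0.283 to 0.655 (edgeR). At chr3R:17467490-17467844 the Upd replicates had 13.4 and 14.8 CPM and the wild types 5.64, 6.89 and 4.91 CPM, against 56.1 and 38.6 CPM in the early and late ATAC-seq tumor. Both Upd replicates lay above the wild types there, but the peak was named for its large Upd value, so their order is no further evidence. At the other end, chrX:17687842-17687993 had 0 and 1 read in the Upd replicates and 0 to 7 reads in the wild types, too few for a difference to be seen at this depth. At chr2L:8418220-8418570 the Upd replicates had 10.4 and 11.7 CPM, below the wild types with 19.5, 21.3 and 21.4 CPM (-0.89 ± 0.24, adjusted p = 0.449, edgeR). The last 3 were chr2L:19528580-19528763 (-1.05), chr2R:12969688-12969877 (-0.86) and chr3L:2169038-2169325 (-0.77). Of the 46 gene-paired members, 39 were above 0, from -0.47 (CG34227) to 0.87 (CG15546), and the lowest adjusted p was 0.695 (edgeR, pigs). Because the choice of members asks for no call in the Upd samples, peaks that Upd opened to the level of a call are not among them.

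**Figure D4:**
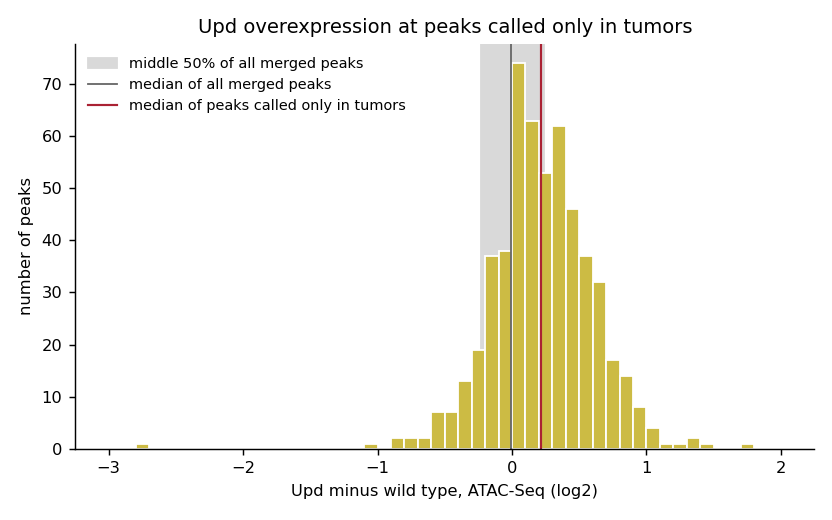
Distribution of the Upd minus wild type difference by ATAC-seq on the log2 scale over the 545 peaks called only in tumors, with the quartiles of all merged peaks as a grey band. The median of the members is 0.21, that of all merged peaks -0.01, and no member passed an adjusted p of 0.01.

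The tumor difference was larger by ATAC-seq than by FAIRE-seq. It had a median of 2.51 on the log2 scale (5.69-fold) by ATAC-seq and of 1.28 (2.43-fold) by FAIRE-seq, and the fitted difference between the techniques was above 0 at 537 members with a median of 1.23. For all merged peaks that median was 0.02, but it was 1.14 in the peaks called in 3 tumors and no control and 1.07 in those with a single control call. The wild type levels differed in the opposite sense, at a median member 4.91 to 5.96 CPM by ATAC-seq and 10.1 to 11.2 CPM by FAIRE-seq. Their part in the difference was not tested, and FRT82 alone was profiled by both. Across the members the tumor differences of the techniques had a Pearson correlation of 0.66, and of 0.63 without the peak on 3L with the most reads.

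Only 1 member had an adjusted p below 0.01 for the interaction of tumor and technique (edgeR), against 0.011% of all merged peaks. This was chr3R:9830603-9831260, with a difference of 2.85 ± 0.37 between the techniques (SE, adjusted p = 0.00545, edgeR). It had 3.90 to 6.23 CPM in the ATAC-seq wild types and 79.4 and 72.8 CPM in the early and late tumor, while FAIRE-seq gave 26.1 and 25.6 CPM in wild types and 60.2 and 48.5 CPM in tumors. The call of the interaction was lost on leaving out any of the 4 tumors or either FAIRE-seq wild type. At an unadjusted p below 0.05 there were 340 members (62.4%, against 17.3% of all merged peaks), and DESeq2 called 91 members (16.7%), all of them larger by ATAC-seq, against 0.863% of all merged peaks. The interaction shares its samples with the contrast that chose the members. The rule asked for no call in 3 wild type and 2 Upd samples by ATAC-seq, but only in 2 wild types by FAIRE-seq. It also chose peaks with a large tumor difference (median 1.92), while the median of all merged peaks was -0.03. These counts, shares and p-values thus only describe the members. Of the members with the largest tumor differences after the peak on 3L, chrX:17687842-17687993, chr2L:7332485-7332914, chr3L:8653322-8654193 and chr3R:5703320-5703655 had log2 differences of 5.46, 4.67, 4.37 and 4.18 by ATAC-seq and of 1.89, 2.02, 2.23 and 2.35 by FAIRE-seq.

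**Figure D5:**
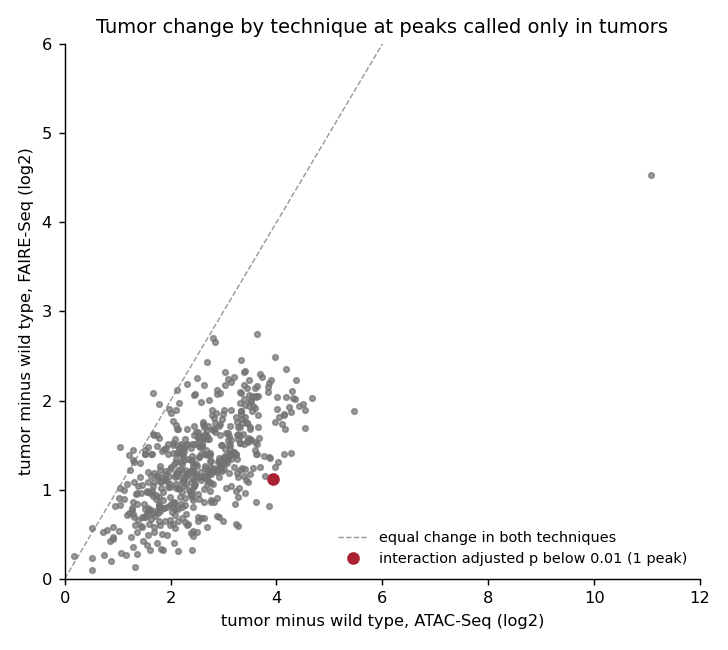
Tumor minus wild type on the log2 scale at each of the 545 peaks called only in tumors, by ATAC-seq (horizontal) and by FAIRE-seq (vertical), with a dashed line of equal change; the red point is the 1 peak with an interaction below an adjusted p of 0.01. At 537 peaks the change is larger by ATAC-seq, with a median of 2.51 against 1.28, and the point at the far right is the 3L peak whose late ATAC-seq count was 23508 reads.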

How the data were processed

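ATAC-seq and FAIRE-seq reads of 11 disc samples were analysed from the authors' files. Per the study's methods, the authors mapped reads to dm3 with Bowtie2, called peaks in each sample with MACS2, joined the calls of all samples into merged peaks and counted the reads on each with HTSeq. They deposited raw counts without normalization, and peak positions without scores. The merged list has 36507 peaks, 36506 of them with counts.

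Members were found by overlap of at least 1 bp. The members, gene lists and tests were chosen with earlier results of these data known. Counts were fitted with edgeR 4.0.16 in R 4.3.3 (TMM factors, robust quasi-likelihood F-test, p-values adjusted by Benjamini-Hochberg over every merged peak that had a count above 0, threshold 0.01). Late was set against early tumor in 4 samples with technique as a term, Upd against the 3 wild types by ATAC-seq, and tumor by technique in 9. The fits were tested on simulated counts. DESeq2 1.42.0, other normalizations, a filter at a mean count of 10, other models and leaving out samples were alternatives. SEs are the fitted difference over the root of F. Reads carry no molecular identifiers. The intervals are those of the CTCF shares, which count peaks, and cover counting error only.

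Named members were the 46 that the study's table of opening regions places, the 5 with the largest tumor difference, the 5 largest and 5 smallest for late against early and for Upd, up to 5 at CTCF peaks and the largest cluster. The interaction member and the further late rises and the lowest tumor differences were named after their values were seen. Positions count from 1 in dm3. Motifs were not searched and no sequence is shown, since the genome of that build was not used here.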

Additional observations from a re-analysis of the deposited data

Results flagged for a closer look

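At 4 of the named members 1 FAIRE-seq wild type stood apart from the other 4 wild types, by the gap to its nearest neighbour over the range of the 5. FRT82 by FAIRE-seq had 11.2 CPM at Trim9, where the others had 4.70 to 5.56 CPM, and 16.3 CPM at nahoda, where the others had 11.1 to 12.1 CPM. CantonS by FAIRE-seq had 9.86 CPM at CG6330, where the others had 5.89 to 6.62 CPM, and 8.03 CPM at chrX:17687842-17687993, where the others had 0 to 2.17 CPM. This was tried on 79 quantities, and chance alone gives about 1 in 20. At the median member, the wild types were higher by FAIRE-seq (10.1 and 11.2 CPM) than by ATAC-seq (4.91 to 5.96 CPM).

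Early and late tumors differed at 14 members by the edgeR test of the difference itself, each of them higher in the late tumors. ATAC-seq and FAIRE-seq differed in the size of the tumor change at chr3R:9830603-9831260, by 2.85 on the log2 scale (edgeR interaction term). The samples of this contrast also chose the members.

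Called peaks also lie on sequences that the count table leaves out. Of 559 regions there, 1 was called in all 4 tumors and in no control, at 9718 to 9850 of the mitochondrial genome, and 53 were called in all 11 samples. No reads were counted on it, so it has no level here.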

How the results depend on the processing

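The number of members followed the rule: 278 when a tumor call had to cover 50% of the merged peak, 1234 with any 3 of the 4 tumor lists, and 1822 with the ATAC-seq tumors alone against the wild types. Leaving out 1 list (chosen after seeing the data) gave 556 to 1023 members, the most without the early FAIRE-seq tumor. Of late against early tumor, 0 members rose by DESeq2, against 3 of 36503 merged peaks. In 1 model of 9 samples 0 members and 0 merged peaks rose. With DESeq2 size factors 8 members rose (all among the 14), against 80 of 36503 merged peaks. With total counts 28 members rose (all 14 among them), against 239 of 36503 merged peaks. Leaving out a sample left the late comparison with no residual degree of freedom, so it gave medians only, 0.11 to 0.43, positive in each technique. At named members 48 of these late differences moved by more than the SE of the fit, 2 were reversed and 54 did neither. Leaving out the early or the late sample of a technique leaves the same contrast, that of the other technique. Each estimate thus enters these counts 2 times, and the 2 reversals were both at Pvf2. At Pvf2 the late difference ran from -0.80 within ATAC-seq to 0.13 within FAIRE-seq. The median for Upd was reversed, at -0.079, in 1 model of 11 samples, and was 0.15 to 0.35 on leaving out samples. At chr2R:12969688-12969877 it was -1.18 to 0.049, above 0 only without DGRP-208. The interaction was called at 91 members by DESeq2, 10 with total counts and 0 to 20 on leaving out samples, the most without DGRP-208. Among all merged peaks 315 were called as larger by ATAC-seq with DESeq2, 22 with total counts and 49 without DGRP-208. The medians of the members were 1.09 to 1.498 on leaving out samples. The causes were not tested. A CTCF overlap of 1 bp gave 4 members in place of 1, a share within the counting interval. Other alternatives left each count within 1.5 times and each median within the spread of its replicates. The alternative on motif windows was not run. No paired analysis was possible because the labels number only the Upd replicates, but the term for technique in the late fit pairs each late tumor with the early one of its technique. With 2 to 5 samples a group, a difference of several SEs could still miss the threshold, as for Upd at chr2L:8418220-8418570, and smaller ones could go unseen.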

Other observations

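Among groups of 3 or more members, the densest lay at chr3L:8087841-8089709, where 3 members made up all 3 merged peaks within 1869 bp. The study's table of opening regions pairs none of them with a gene, and none of the 276 regions of its table of closing regions was a member.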
